A study of Mus musculus with 10 samples.

Results

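Esrrb encodes an orphan nuclear receptor of the estrogen-related receptor family. The Esrrb region is the stretch of mouse chromosome 12 (build mm9) from 87680000 to 87890000. It holds the span of the gene, 87702067-87862578 on the plus strand, with a flank on each side. Its members are the peaks of all deposited lists that overlap it, 204 of 543779 peaks in all. The locus was chosen by measured values, because the 100 kb window that begins at 87800001 held less length under peaks of H3K79me2, RNA polymerase II (Pol II) and H3K4me3 after treatment. Those 3 differences are therefore given as a description, with no test.

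The peaks come from chromatin immunoprecipitation with sequencing in R1E mouse embryonic stem cells, a line of C57BL/6X129Sv mixed background used at low passage. Cells of both conditions were cultured with fetal bovine serum and leukemia inhibitory factor. They were left untreated or given 0.5 uM Adriamycin for 8 h. Adriamycin (doxorubicin) traps topoisomerase II on DNA and so breaks the strands. There was 1 library for each of 5 targets in each condition, 10 lists in all, so no difference between conditions has a replicate check and no p-value is given. Read depth is unknown. The lists held between 1022 and 97639 peaks, and the Adriamycin list covered less of the genome than the untreated one for each of the 5 targets. The cell type label was not checked against marker genes, since no gene annotation on mm9 was used here.

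In embryonic stem cells Esrrb is known as a member of the transcription factor network that holds the naive pluripotent state. Its product binds an extended nuclear receptor half-site as a monomer or dimer, works beside Oct4, Sox2 and Nanog, and can sustain self-renewal when raised. The gene is itself a target of Nanog and is repressed by Tcf7l1 (Tcf3) until Wnt signalling relieves that repression. Of the marks measured, trimethylated lysine 4 of histone H3 (H3K4me3) lies at active and poised promoters and is unusually wide at some genes of cell identity. H3K79me2, laid down by Dot1l, follows transcription into the first part of gene bodies. H3K27me3 is the product of Polycomb repressive complex 2. The fifth target, hnRNP L, is an RNA-binding protein that acts in splicing.

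In untreated cells the locus was divided along its length. H3K27me3 occupied the upstream flank and the 5′ part of the gene, up to 87770520, which lies 68.5 kb into the gene. H3K4me3, Pol II and H3K79me2 occupied mainly the 92.1 kb from there to the gene end. In the 5′ part, H3K27me3 peaks covered 55.1% of the bases, against 4.81% for H3K4me3, 4.63% for Pol II and 2.22% for H3K79me2. In the 3′ part, H3K79me2 covered 85.1%, Pol II 68.1%, H3K4me3 55.9% and H3K27me3 0%. The same division was found after Adriamycin, with 36.0% of the 5′ part under H3K27me3 and 59.5%, 52.3% and 45.4% of the 3′ part under H3K79me2, Pol II and H3K4me3. The border was placed after the values were seen, at the end of the last untreated H3K27me3 peak that starts in the gene. The 0% for H3K27me3 in the untreated 3′ part is therefore set by that choice. The peak that sets it, at 87770043-87770520, scored 51.04, where the lowest score of its list is 50. A further block of H3K27me3 began in the downstream flank, at 87871214 in untreated cells and at 87870689 after Adriamycin. No hnRNP L peak lay in the region in either condition, and the nearest to the gene start was 648 kb away in untreated cells and 7113 kb away after Adriamycin. The hnRNP L lists held only 1120 and 1022 peaks in that order. The nearest untreated peak scored 51.89, where the lowest score of its list is 50.02, and the nearest after Adriamycin scored 3071.83.

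**Figure D1:**
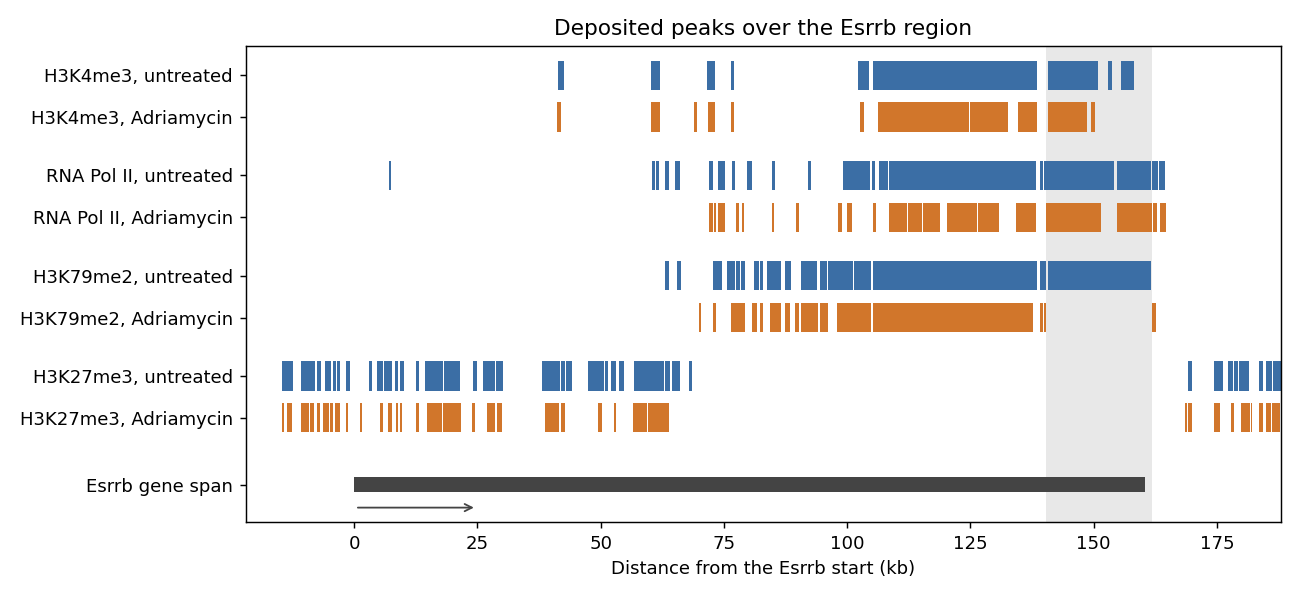
Peaks of each target in untreated cells (blue) and after Adriamycin (orange) against the distance from the Esrrb start in kb. The dark bar is the gene span, the arrow gives the direction of transcription, and the shaded stretch of 21.6 kb at the 3′ end holds no H3K79me2 peak after Adriamycin.

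The annotated start of Esrrb, at 87702067, carried neither H3K4me3 nor Pol II within 5 kb in either condition. The nearest H3K4me3 peak lay 29.5 kb from the start in untreated cells and 39.8 kb from it after Adriamycin, and both were upstream of the region. H3K27me3 was the one target found there, with 3.28 kb under peaks within 5 kb of the start in untreated cells and 2.44 kb after Adriamycin. The first H3K4me3 peak of the region with a score over 1000 was at 87762180-87764167, between 60.1 and 62.1 kb into the gene. It was found again after Adriamycin at 87762178-87764022. In both lists it overlapped H3K27me3, the combination known from bivalent promoters. The smaller H3K4me3 peak at 87743327-87744634 also overlapped H3K27me3 in both conditions.

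RefSeq lists 2 promoters for Esrrb on build GRCm38.p6, and both are shown as the annotated starts of the gene. The first belongs to the start of the gene span, and the second starts 60.5 kb downstream of it. The gene span is 160512 bp long in RefSeq and on mm9. An offset of 60.5 kb falls within the limits of the H3K4me3 peak between 60.1 and 62.1 kb into the gene. The positions of GRCm38.p6 were not carried over to mm9, so the second promoter is not assigned to a peak. Each sequence holds 250 bases before the start and 50 after it, on the plus strand, and capitals mark a CCAAT box.
Esrrb first promoter, chr12:86360867-86361166: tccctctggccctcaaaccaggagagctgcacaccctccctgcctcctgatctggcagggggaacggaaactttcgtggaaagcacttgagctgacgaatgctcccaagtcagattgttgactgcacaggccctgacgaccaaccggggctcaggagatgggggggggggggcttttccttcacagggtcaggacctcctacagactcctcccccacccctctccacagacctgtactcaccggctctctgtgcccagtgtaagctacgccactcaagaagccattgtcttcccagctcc
Esrrb second promoter, chr12:86421394-86421693: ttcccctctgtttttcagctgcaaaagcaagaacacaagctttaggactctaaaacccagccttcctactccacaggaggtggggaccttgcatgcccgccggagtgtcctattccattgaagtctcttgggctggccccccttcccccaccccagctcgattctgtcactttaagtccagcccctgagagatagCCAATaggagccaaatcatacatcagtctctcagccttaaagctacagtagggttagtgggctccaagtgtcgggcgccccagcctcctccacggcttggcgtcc
The 2 promoters were searched on both strands for the TATA box (TATAAA), the CCAAT box, the GC box (GGGCGG), the estrogen-related receptor site (AAGGTCA), the octamer (ATGCAAAT) and an E2F site (TTTCGCGC). The one match was CCAAT in the second promoter, at position -55 from the start. Among all 32851 promoters listed, 37.4% hold the CCAAT box, 35.7% the GC box, 13.6% the TATA box, 4.72% the receptor site, 1.74% the octamer and 0.323% the E2F site. Each Esrrb promoter holds 7 CG dinucleotides, which is also the median of the table. A match or its absence in these 300 bases says nothing of binding.

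The H3K4me3 domain in the 3′ part was the widest in the untreated list. The peak at 87807275-87840552 spanned 33.3 kb and ranked 1 by length among 38421 untreated H3K4me3 peaks, ahead of the next at 22.6 kb. Its score was 3100, a level that 9209 peaks of the list reached or passed. After Adriamycin the same stretch held 7 H3K4me3 peaks, which covered 29.9 kb or 89.9% of it. Their scores ran from 70.36 to 3100, and the longest, at 87808232-87822242, measured 14.0 kb and ranked 4 among 41705. Of the 6 gaps between them, 5 measured between 5 and 165 bp and the longest 1993 bp. The break-up into 7 peaks thus came mostly from gaps of at most 165 bp. The gap of 1993 bp stayed open when peaks within 1 kb were joined. With that joining the locus held the longest H3K4me3 domain of each list, of 36.3 kb without and 26.5 kb with Adriamycin. Of 53 untreated H3K4me3 peaks of at least 10 kb, 3 (5.66%) were met by at least 7 Adriamycin peaks, the one at Esrrb among them. The median was 3.

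Over the whole region H3K4me3 peaks covered 54.8 kb before treatment and 44.5 kb after it, or 81.3% of the untreated length, while their number was 10 and 17. At the upstream edge of the wide domain, between 97.9 and 107.9 kb from the gene start the length went from 5.07 to 2.58 kb, and downstream of it, between 147.9 and 157.9 kb from 5.98 kb to 1.51 kb. In the bin between 107.9 and 117.9 kb all 10 kb lay under peaks in both lists. At the 3′ end the untreated peaks at 87854967-87855791 and 87857724-87860256 had no partner, where a partner is a peak for the same target on the other list that shares at least 1 bp. They were 2 of 10 untreated peaks (20.0%, exact Clopper-Pearson 95% interval 2.52 to 55.6%), beside 14.5% of the whole list, and the list scores, the authors’ values, were 70.62 and 107.71. Of 17 Adriamycin peaks 1 (5.88%) had no partner, at 87771057-87771658, beside 15.8% of its list.

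**Figure D2:**
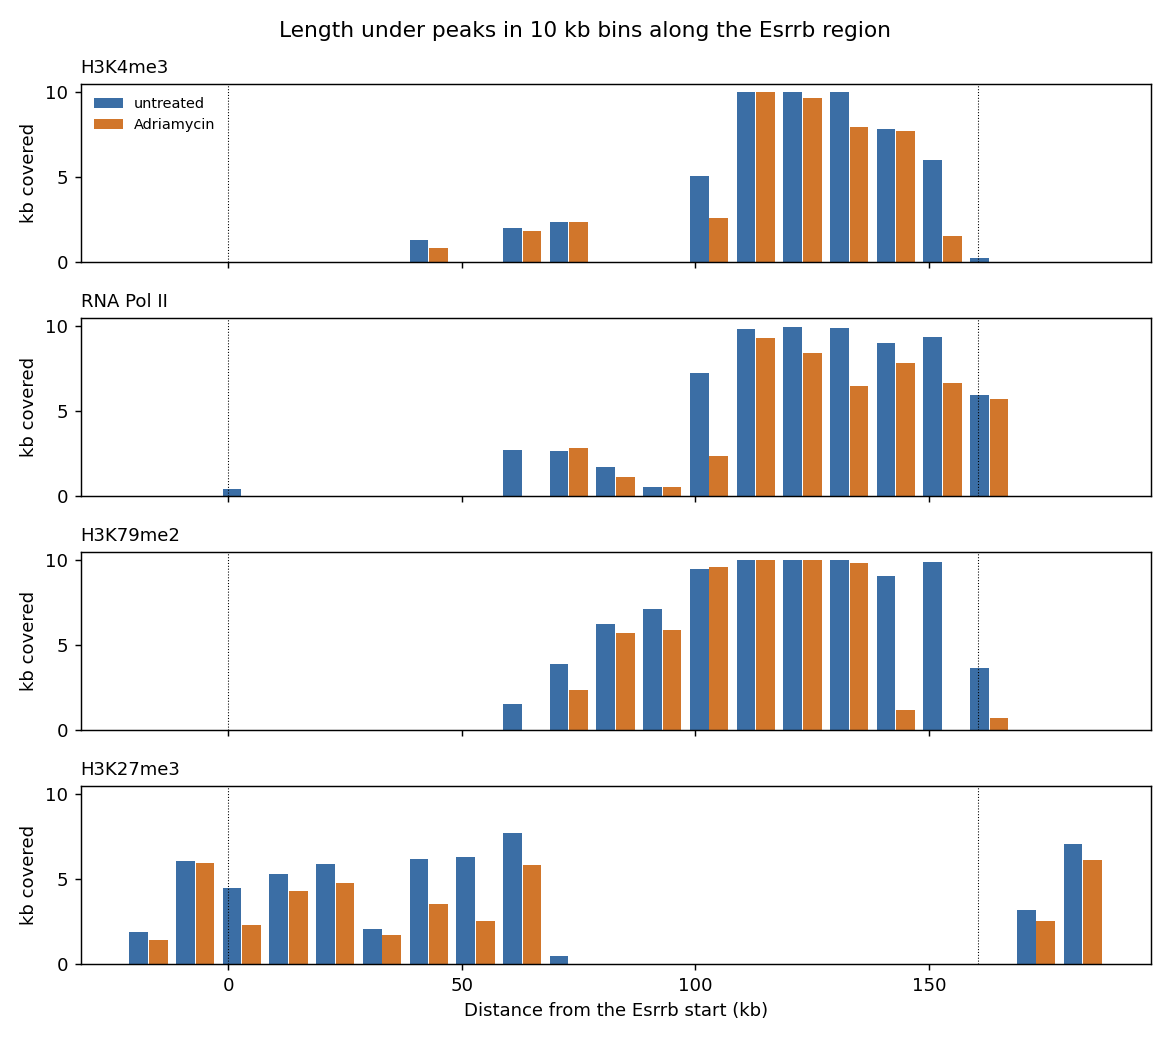
Length in kb under peaks of each target in bins of 10 kb (each bar is 1 bin of 1 library), against the distance from the Esrrb start in kb. Dotted lines mark the gene start and end. Between 147.9 and 157.9 kb H3K79me2 went from 9.91 to 0 kb, while Pol II went from 9.34 to 6.69 kb.

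Pol II in untreated cells ran through the 3′ part of the gene and past its end. Untreated peaks covered 69.2 kb of the region and Adriamycin peaks 51.3 kb, 74.1% of the untreated length, with 30 and 23 peaks. Joined over gaps of up to 1 kb, the untreated peaks formed a domain of 65.3 kb at 87801185-87866495, the longest such Pol II domain of the list. After Adriamycin the longest in the region measured 11.2 kb, at 87842449-87853658, and ranked 321, with the longest of that list at 42.6 kb. These lengths and ranks hold for the 1 kb limit, under which the Adriamycin peaks ending at 87820962 and beginning at 87822331 stayed apart. Most of the long untreated peaks still had Pol II over the greater share of their length. The 12.4 kb untreated peak at 87822321-87834709 was met by 2 Adriamycin peaks over 83.4% of its length. The 13.7 kb peak at 87842475-87856171 was met by 3 peaks over 80.7%, and the 8.55 kb peak at 87813710-87822255 by 3 peaks over 83.2%.

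Scores are not compared between lists, since 2414 Pol II peaks scored 3100 or more in untreated cells and 269 after Adriamycin. The untreated peaks at 87810522-87813216 and, at the 3′ end, at 87858674-87863812 both scored 3100 and are tied with many others there. Within the Adriamycin list the peaks over these places differed in score. The one at 87810520-87813671 had 1978.94, the highest of the locus, which 1.41% of that list exceeded. The one at 87856924-87863842 had 184.9, which 29.8% of that list exceeded. Past the gene end Pol II was found up to 87866495 in untreated cells and up to 87866720 after Adriamycin.

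The Pol II peaks of the 5′ part were found in untreated cells alone. There were 5, at 87709077-87709510, 87762578-87763099, 87763299-87763876, 87765174-87765825 and 87767141-87768121, and each overlapped an H3K27me3 peak. Their scores ran from 57.28 to 304.57. After Adriamycin the 68.5 kb held 0 Pol II peaks and the first one of the region began at 87774143. This stretch lies outside the window that chose the locus. In the whole list 39.0% of untreated Pol II peaks that overlapped H3K27me3 had no partner, so unpartnered peaks of this kind were common. Over the region 15 of 30 untreated Pol II peaks had no partner (50%, interval 31.3 to 68.7%), beside 48.0% of the list, and 5 of 23 Adriamycin peaks (21.7%, interval 7.46 to 43.7%), beside 26.1%. The shares at Esrrb were near those of the lists.

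H3K79me2 showed the largest difference in covered length of the 4 targets present, and most of it came from 1 stretch. Peaks covered 80.9 kb before treatment and 55.4 kb after it, 68.5% of the untreated length, with 19 peaks in each list. Of the difference of 25.5 kb, 20.8 kb (81.6%) lay at 87842402-87864015, a stretch of 21.6 kb that runs from 140.3 to 161.9 kb past the gene start and ends just beyond the gene. Untreated cells had 2 H3K79me2 peaks there, at 87842767-87856535 (13.8 kb, score 2473.88) and 87856630-87863636 (7.01 kb, score 1833.32). The Adriamycin list had none between the peak that ends at 87842401 and the one that begins at 87864016.

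The other targets did not end at the same place. In that stretch Pol II covered 20.7 kb before and 18.0 kb after treatment, with 4 peaks in each list, and H3K4me3 covered 13.5 and 8.71 kb. It held 46.7% of the H3K4me3 difference over the region and 15.0% of the Pol II difference. The last H3K4me3 peak ended at 87860256 in untreated cells and at 87852407 after Adriamycin. The stretch was chosen for its lack of H3K79me2 after Adriamycin, so a larger difference for that target follows in part from the choice. H3K27me3 was absent from the stretch in both lists. Upstream of the stretch, the longest H3K79me2 peak was found in both lists. The untreated peak at 87807262-87840570 (33.3 kb, score 3100) was met by 1 Adriamycin peak at 87807274-87839865 (32.6 kb, score 2312.38), over 97.8% of its length. Outside the stretch the region held 60.1 kb of H3K79me2 in untreated cells and 55.4 kb after Adriamycin, 92.2%.

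Strong or long H3K79me2 peaks seldom lacked a partner in these lists. The median share of an untreated peak of at least 10 kb that Adriamycin peaks covered was 98.5%. Of 1850 such peaks, 11 had none (0.595%), and of 9536 with a score of at least 1000, 28 had none (0.294%). The 13.8 kb peak at Esrrb is among the 11. It lies in the window that chose the locus, so its place there follows in part from that choice. Of the 11, 7 overlapped both a Pol II and an H3K4me3 peak after Adriamycin, as the Esrrb peak did. Whether the peak caller left out enriched sequence in such places was not tested, since no signal track was used here. Of all untreated H3K79me2 peaks in the region 5 of 19 had no partner (26.3%, interval 9.15 to 51.2%), beside 19.0% of the list, and 3 of 19 after Adriamycin (15.8%), beside 18.0%. Apart from the 2 peaks of the stretch, the untreated ones without a partner were short, with scores of 68.54, 63.57 and 121.46.

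At its 5′ end the H3K79me2 domain began nearer to H3K27me3 in untreated cells. Its first untreated peaks, at 87765201-87765950 and 87767543-87768311 with scores of 68.54 and 63.57, overlapped H3K27me3. The first Adriamycin peak was at 87772084-87772519, with a score of 56.72. These scores are near 50, the lowest of either list. No H3K79me2 peak of the region overlapped H3K27me3 after Adriamycin. H3K27me3 covered 1.67% and 0% of the H3K79me2 length in the region, against 1.60% and 1.09% over the lists. From 77.9 to 97.9 kb past the gene start H3K79me2 was patchy in both lists, at 6.26 and 7.14 kb per 10 kb bin in untreated cells and 5.73 and 5.92 kb after Adriamycin, and H3K4me3 was absent there.

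H3K27me3 was not used to choose the locus. Its peaks covered 56.8 kb of the region in untreated cells and 41.1 kb in the treated list, 72.4%, with 44 and 42 peaks. Both the number and the width of peaks were lower, with a median length of 1026 bp in untreated cells and 781 bp after Adriamycin. Untreated peaks without a partner held 7.53 kb. The difference was largest inside the gene. The 5′ part went from 37.7 to 24.6 kb, the upstream flank from 8.82 to 7.79 kb and the downstream flank from 10.3 to 8.69 kb. Within the 5′ part it was greatest between 47.9 and 57.9 kb past the start, where 6.33 kb became 2.54 kb.

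The strongest H3K27me3 peak of the region lay over the H3K4me3 peak about 60 kb into the gene. It was at 87758809-87764979, spanned 6.17 kb and had a score of 1838.56, and 3 Adriamycin peaks with scores between 494.58 and 724.41 met 97.8% of it. The next, at 87740248-87743784 with a score of 1047.12, was met by 1 peak over 78.9%. Within the untreated list 1.94% of peaks scored higher than the former and 4.04% higher than the latter. Within the Adriamycin list 4.27% and 4.24% scored higher than the strongest peak at each place. Among untreated H3K27me3 peaks 9 of 44 had no partner (20.5%, interval 9.80 to 35.3%), beside 41.2% of the list, and after Adriamycin 3 of 42 (7.14%, interval 1.5 to 19.5%), beside 27% (23863 of 88365 peaks). In both lists the share at Esrrb was lower than in the list as a whole, without a match for score or length.

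Several overlaps between targets were lower after Adriamycin, in the region and in the whole lists. H3K79me2 peaks covered 91.5% of the H3K4me3 length in untreated cells and 69.5% after Adriamycin, and over the whole lists the shares were 40.4% and 34.4%. Pol II covered 91.2% and 75.5% of the H3K4me3 length in the region, against 48.9% and 39.2% over the lists. Of the Pol II length, 89.5% lay under H3K79me2 in untreated cells and 57.4% after Adriamycin, against 45.3% and 38.6% over the lists. Whether the region differs from the lists in this was not tested. The stretch without H3K79me2 at the 3′ end, where Pol II and H3K4me3 were found, is part of both H3K79me2 shares. H3K4me3 overlapped H3K27me3 at 2 of 10 peaks in untreated cells and 2 of 17 after Adriamycin, over 3.12 and 2.20 kb. H3K27me3 covered 5.70% and 4.95% of the H3K4me3 length in the region, against 17.8% and 15.8% over the lists. Pol II and H3K27me3 shared 3.17 kb before treatment and 0 kb after it, or 4.58% and 0% of the Pol II length. Over the lists that share was 6.99% and 7.74%, so it was not lower there. The share of Pol II length under H3K4me3 was 72.1% and 65.5% in the region, against 39.8% and 41.3% over the lists.

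Set beside windows of the same length over the numbered chromosomes and X, the lower lengths at Esrrb were ordinary for Pol II and H3K27me3. The log2 ratio (treated length over untreated, 1 kb added to each) was -0.43 for Pol II at Esrrb. Its median was -0.54 in the 3355 windows whose untreated Pol II length reached 5 kb. For H3K27me3 it was -0.46, against a median of -0.42 over 4701 windows. When each length was divided by the covered length of its whole list, Pol II at Esrrb had a ratio above 0, at 0.07. For Pol II, then, the locus stood slightly above the change of the lists as a whole. Windows at or below the Esrrb value made up 60.3% for Pol II and 43.8% for H3K27me3. A length lower by at least 1.5 times was found in 46.1% of windows for Pol II and 28.8% for H3K27me3. Over the region as defined no target at Esrrb passed that limit, but H3K27me3 did over the gene span alone (-0.59), and H3K79me2 did with equal numbers of top-scoring peaks (-0.65).

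For H3K4me3 the ratio at Esrrb was -0.29, against a median of -0.12 over 3646 windows, of which 6.20% were lower by at least 1.5 times and 863 (23.7%) stood at or below Esrrb. For H3K79me2 it was -0.54, against a median of -0.09 over 3856 windows, of which 3.19% were lower by at least 1.5 times. Windows at or below the H3K79me2 ratio of Esrrb numbered 149 (3.86%). Without the 3′ stretch the H3K79me2 ratio at Esrrb was -0.12. That stretch was defined by having no H3K79me2 peak after Adriamycin, so leaving it out moves the ratio towards 0 by construction, and the windows were not trimmed in that way. These windows describe the same libraries, and the locus was chosen on 3 of the 4 ratios, so no test is attached to its place among them. In bulk chromatin, fewer cells with a mark and less of it per cell cannot be told apart.

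**Figure D3:**
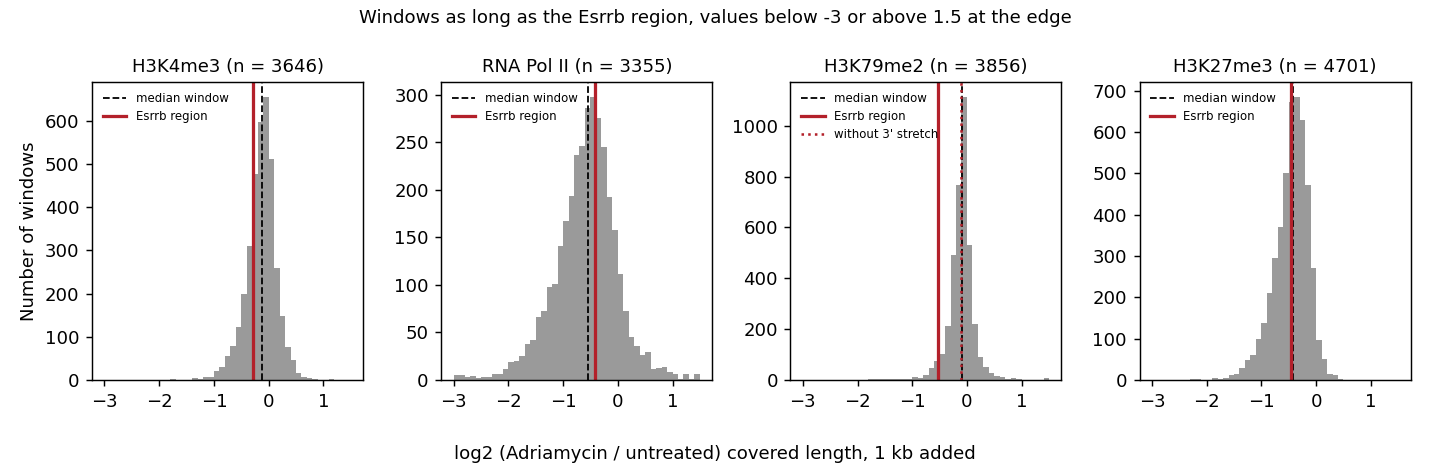
Number of genome windows as long as the Esrrb region against the log2 ratio of treated over untreated length under peaks (1 kb added), where the untreated length reached 5 kb. The red line is the Esrrb region, the dashed line the median window, and the dotted red line H3K79me2 at Esrrb without the 3′ stretch, at -0.12.

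In RefSeq the nearest protein-coding genes are Gpatch2l before Esrrb and Vash1, which encodes vasohibin 1, after it. The noncoding Gm40483 overlaps Esrrb in RefSeq. Its position was not placed on mm9, so signal of the region was not divided between the 2 genes. Among 8 windows of the region's length, 4 on each side, H3K79me2 had at least 5 kb in untreated cells in 6, with log2 ratios from -0.35 to 0.38. H3K4me3 likewise had 6, with ratios from -0.21 to 0.34. The locus was chosen for lower lengths of both marks, so a larger drop there follows in part from the choice. Neither range reached the value of the Esrrb region. The nearest to it was the window at step 2 downstream, where the treated lists held 38.7 kb of H3K4me3 against 45.1 kb, 36.1 kb of Pol II against 53.4 kb and 37.3 kb of H3K79me2 against 47.8 kb. For Pol II 7 windows gave -1.05 to 0.20, and for H3K27me3 6 windows gave -1.12 to -0.16, ranges that held the Esrrb values. No neighbouring window held as much H3K4me3, Pol II or H3K79me2 as Esrrb in untreated cells, where the highest were 45.1, 53.4 and 56.6 kb. After Adriamycin 1 neighbour exceeded it for H3K79me2, with 56.2 kb.

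**Figure D4:**
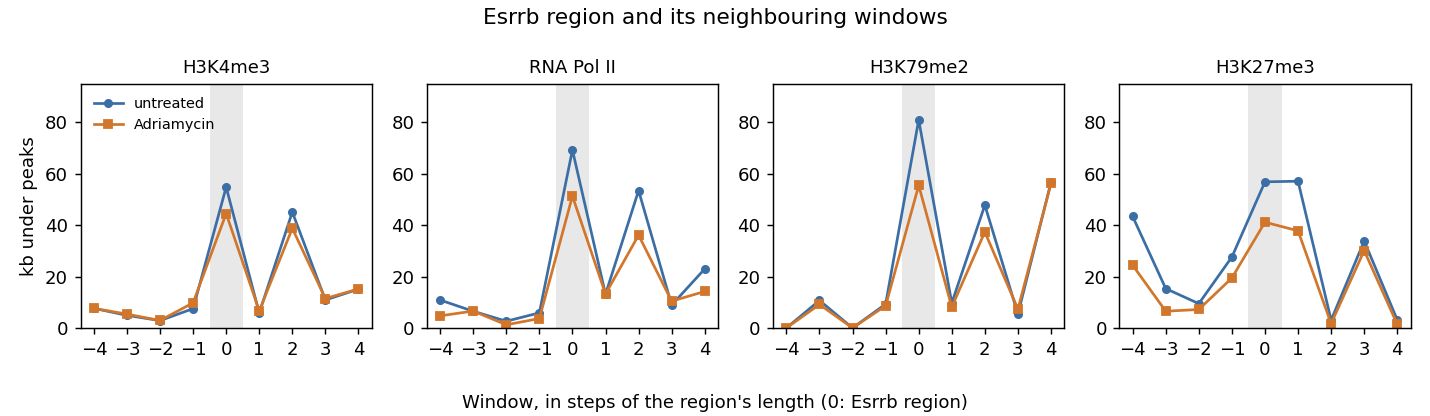
Length in kb under peaks of each target in the Esrrb region (0, shaded) and in 4 windows of the same length on each side, in untreated cells (circles) and after Adriamycin (squares). The Esrrb region went from 80.9 to 55.4 kb of H3K79me2, and the window at step 4 from 56.6 to 56.2 kb.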

How the data were processed

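Peak lists on mm9 for 5 targets, 1 library per condition, were used as deposited. MACS 1.4.1 and CASAVA 1.8.2 are named in the submitters' processing notes. Each deposited peak has a position and a score that the authors gave. That value was compared only among peaks of its own list. The sources used here do not give depth, any input library or how duplicates were treated. The part these play in peak width or number was not tested.

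Positions are 1-based. Covered length was clipped to the region. Intervals cover counting error only and take peaks or windows as independent, which neighbouring ones of 1 library need not be. Genome windows tiled the chromosomes to the highest peak end. The interval steps were tested on simulated data. Tables were made in Python 3.11.15 with pandas 2.3.3 and numpy 2.4.6, intervals with SciPy 1.17.1 and plots with matplotlib 3.10.9. Promoters and neighbouring genes are from RefSeq (GRCm38.p6). The planned list of naive pluripotency genes was not run without an mm9 annotation. Peaks were named where a target had at most 10 in a list, and otherwise as the 3 highest-scoring, the 3 longest and the 3 longest without a partner. Other peaks named, the inner border, the 3′ stretch, the Pol II and H3K79me2 peaks of the 5′ part and the domain ranks were chosen after their values were seen. The members and lists were chosen with earlier results of these data known.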

Additional observations from a re-analysis of the deposited data

How the results depend on the processing

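The log2 ratios of covered length at Esrrb kept their sign under the alternatives run (H3K4me3 -0.33 to -0.17, H3K79me2 -0.65 to -0.12, H3K27me3 -0.59 to -0.03), except Pol II, which was 0.074 when lengths were divided by that of the whole list. Chosen after the values were seen, leaving out the 3′ stretch gave -0.12 for H3K79me2, nearer 0 by construction. Counts of untreated peaks without a partner moved by over 1.5 times with the rule. With a score of at least 100 they were 1 for H3K4me3, 5 for Pol II, 3 for H3K79me2 and 3 for H3K27me3. With peaks within 1 kb merged they were 7 for Pol II, 2 for H3K79me2 and 1 for H3K27me3. With no Adriamycin peak within 1 kb they were 6, 2 and 2 in that order, and with equal numbers of top-scoring peaks 8 for Pol II. The percent of windows lower by at least 1.5 times left its interval in several cases. With windows of 100 kb it was 8.84 for H3K4me3, 48.4 for Pol II and 4.41 for H3K79me2. With at least 20 kb in untreated cells it was 7.36 for H3K4me3, 1.81 for H3K79me2 and 17.4 for H3K27me3. With scores of at least 100 it was 57.7 for Pol II, 4.30 for H3K79me2 and 38.7 for H3K27me3. The cause of these moves was not tested, beyond fewer peaks or windows by construction. No paired analysis was possible because each target had 1 library per condition. Depth was unknown, so an absent peak is not shown to be absent signal.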
